A study of Mus musculus with 14 samples.

Results

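The glucocorticoid receptor gene Nr3c1 and 9 genes known as direct targets of glucocorticoids were followed through cultured mouse BFU-E, the burst-forming unit-erythroid cells that stand early in red blood cell formation. The 10 genes are Nr3c1, Fkbp5, Tsc22d3, Per1, Per2, Sgk1, Dusp1, Errfi1, Pik3ip1 and Txnip. They were taken by name from the expression tables, which hold 23598 usable gene symbols for one compound and 54540 for the other, and all 10 are listed in both. BFU-E were isolated from C57BL/6 mouse fetal liver and cultured in StemSpan SFEM II. One set of cultures received Compound OB at 100 µM or DMSO, and a separate set received Compound PD at 3 nM or DMSO. Each of the 4 groups (OB DMSO, Compound OB, PD DMSO and Compound PD) has 3 RNA libraries. No genotype other than the strain is given, and the labels name no steroid in the medium, no duration of treatment and no embryonic day. Whether the 3 libraries of a group stem from different cultures or mice is not said, so p-values measure only the spread between these libraries, which may be technical.

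The glucocorticoid receptor is a transcription factor that waits in the cytoplasm with Hsp90 and its partner proteins, binds cortisol or corticosterone, and moves into the nucleus. There it binds glucocorticoid response elements and raises a set of early target genes. Several of these (Fkbp5, Tsc22d3, Dusp1) restrain the receptor itself or inflammatory and growth signals. In fetal liver and bone marrow, glucocorticoids sustain the self-renewal of BFU-E, and the series concerns compounds tested in these cells. Several of the same promoters also carry cAMP response elements, the sites of CREB. E-boxes and carbohydrate response elements, bound by clock factors or by MondoA and ChREBP, are present as well.

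Promoter sequences show how differently the 10 genes are built near their starts. RefSeq windows of 300 bases, from 250 before to 50 after an annotated start on GRCm38.p6 (the assembly named mm10), were present for 8 of the 10 genes (17 windows, since Sgk1, Tsc22d3, Per1 and Errfi1 have several starts). Nr3c1 and Per2 had no window in the table. Both strands were searched. In the lines that follow capitals mark the motif, and sequences run 5′ to 3′ on the gene's strand.
Sgk1, chr10:21993666-21993750, plus strand, glucocorticoid response element: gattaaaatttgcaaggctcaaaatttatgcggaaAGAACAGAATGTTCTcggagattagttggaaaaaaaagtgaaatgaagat
Dusp1, chr17:26508558-26508650, minus strand, cAMP response element and E-box: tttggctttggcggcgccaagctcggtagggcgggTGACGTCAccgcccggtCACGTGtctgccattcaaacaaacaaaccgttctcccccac
Errfi1, chr4:150854984-150855061, plus strand, cAMP response element: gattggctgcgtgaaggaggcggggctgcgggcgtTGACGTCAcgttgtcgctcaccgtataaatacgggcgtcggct
Per1, chr11:69098699-69098823, plus strand, short cAMP element and E-box: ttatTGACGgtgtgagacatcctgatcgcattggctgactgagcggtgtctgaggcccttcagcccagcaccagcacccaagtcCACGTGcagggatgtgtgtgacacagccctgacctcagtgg
Fkbp5, chr17:28486278-28486353, minus strand, E-box: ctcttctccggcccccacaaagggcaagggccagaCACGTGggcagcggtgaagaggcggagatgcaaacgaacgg
Txnip, chr3:96557837-96557923, plus strand, paired E-box of the carbohydrate response element: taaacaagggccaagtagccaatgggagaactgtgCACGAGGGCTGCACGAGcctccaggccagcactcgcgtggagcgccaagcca

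The stretches of Dusp1, Fkbp5 and Txnip lie upstream of the annotated gene. Those of Sgk1, Errfi1 and Per1 lie within the span of the gene, upstream of one of its internal starts. The full glucocorticoid response element searched was AGAACA and TGTTCT with any 3 bases between them. It was found in 1 of the 17 windows, that of Sgk1, against 0.00913% of all 32851 windows. A relaxed form, GNACA and TGTNC with any 3 bases between them, covers the full form and was found in 2 of the 17 (Sgk1 and Txnip), against 0.475% of windows. TGACGTCA was found in 2 of the 17 (Dusp1 and Errfi1), against 1.79% of windows. The short form TGACG, which lies inside TGACGTCA, was found in 6 of the 17 windows (Dusp1, Errfi1, Per1, Sgk1 and Tsc22d3), against 20.8% of all windows. The E-box CACGTG was found in 4 of the 17 (Dusp1, Fkbp5, Per1 and Sgk1), against 7.15%. The carbohydrate response element, CACGNG 2 times with any 5 bases between them, was found in 1 of the 17 (Txnip), against 0.0487%. A match is a run of letters in these windows and says nothing of binding. Enhancers farther away, which carry many known receptor sites, are outside these windows.

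All 14 BFU-E and early erythroid markers reached a mean of 1 FPKM (fragments scaled to gene length and library size) in every group, with summed levels of 2139 to 4218 FPKM. Markers of hepatocytes summed to at most 6.44 FPKM. Markers of other blood lineages did not have equal levels. The 11 neutrophil and granulocyte precursor genes summed to 583, 148 and 145 FPKM in OB DMSO replicates 1, 2 and 3, and to 487, 166 and 181 FPKM in the Compound OB replicates. In the other set they summed to 11439 to 17250 FPKM with DMSO and 29252 to 36637 FPKM with Compound PD. The 9 megakaryocyte genes summed to 1415, 501 and 585 FPKM in OB DMSO and 1020, 611 and 648 FPKM in Compound OB. They summed to 4637, 2376 and 2348 FPKM in PD DMSO and 7606, 4291 and 4771 FPKM in Compound PD. Mast cell and basophil markers summed to 2060, 1042 and 1082 FPKM in PD DMSO and 3529, 1697 and 1703 FPKM in Compound PD, and erythroid markers to 4218, 2463 and 2486 FPKM in PD DMSO. Replicate 1 thus stood apart from replicates 2 and 3 in all 4 groups, in neutrophil and megakaryocyte markers in the OB set and in megakaryocyte and mast cell markers in the PD set. The PD set held far higher levels of granulocyte and megakaryocyte markers. OB DMSO replicate 2 stood apart in another way, with 12380 FPKM of the ribosomal RNA entry Rn45s (175 to 955 FPKM in the other OB libraries) and 2069 FPKM of the small RNA Rmrp (11.2 to 51.5 FPKM). Without it the 7 tested genes kept their signs, with Fkbp5 at 0.45 and Txnip at −0.82 on the log2 scale. In bulk RNA, a change in the share of a cell type and a change in RNA per cell cannot be told apart. The part of these markers in the results for the steroid genes was not tested.

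Within each set, Txnip, Nr3c1 and Tsc22d3 were among the more abundant of the 10 genes and Errfi1 was at or near the bottom. In OB DMSO the order of mean FPKM, a scale set per gene length, was Txnip (16.1), Nr3c1 (14.4), Tsc22d3 (14.2), Fkbp5 (7.34), Per1 (5.93), Dusp1 (5.58), Per2 (1.81), Sgk1 (0.793), Errfi1 (0.30) and Pik3ip1 (0.237). The libraries of neighbours in this order overlapped for Txnip and Nr3c1, Nr3c1 and Tsc22d3, Fkbp5 and Per1, Per1 and Dusp1, and Errfi1 and Pik3ip1. Tsc22d3 and Fkbp5, Dusp1 and Per2, Per2 and Sgk1, and Sgk1 and Errfi1 did not overlap. With Compound OB, Nr3c1 (17.8) and Tsc22d3 (17.1) came first with overlapping libraries. Fkbp5 (10.9), Txnip (9.7) and Per1 (9.18) overlapped below them, and Dusp1 (4.34), Per2 (2.84) and Sgk1 (0.92) each stood clear of the gene above. In PD DMSO, Txnip led at 34.8 FPKM, above every library of Tsc22d3 (24.4 FPKM). Tsc22d3, Fkbp5 (19.3), Nr3c1 (18.3), Per1 (16.8) and Dusp1 (10.3) followed with overlapping neighbours. Pik3ip1 (2.96), Per2 (1.9) and Sgk1 (1.1) formed a lower group and Errfi1 (0.147) came last. With Compound PD the means were 41.1 FPKM for Txnip and 27.3 for Tsc22d3, whose libraries overlapped, then 19.8 for Nr3c1, 19.5 for Fkbp5, 12.1 for Per1 and 9.07 for Dusp1, again with overlapping neighbours. Pik3ip1 (3.04), Sgk1 (2.98), Per2 (2.32) and Errfi1 (0.213) were the lowest. Levels are not tested between the sets, which were tabulated separately.

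**Figure D1:**
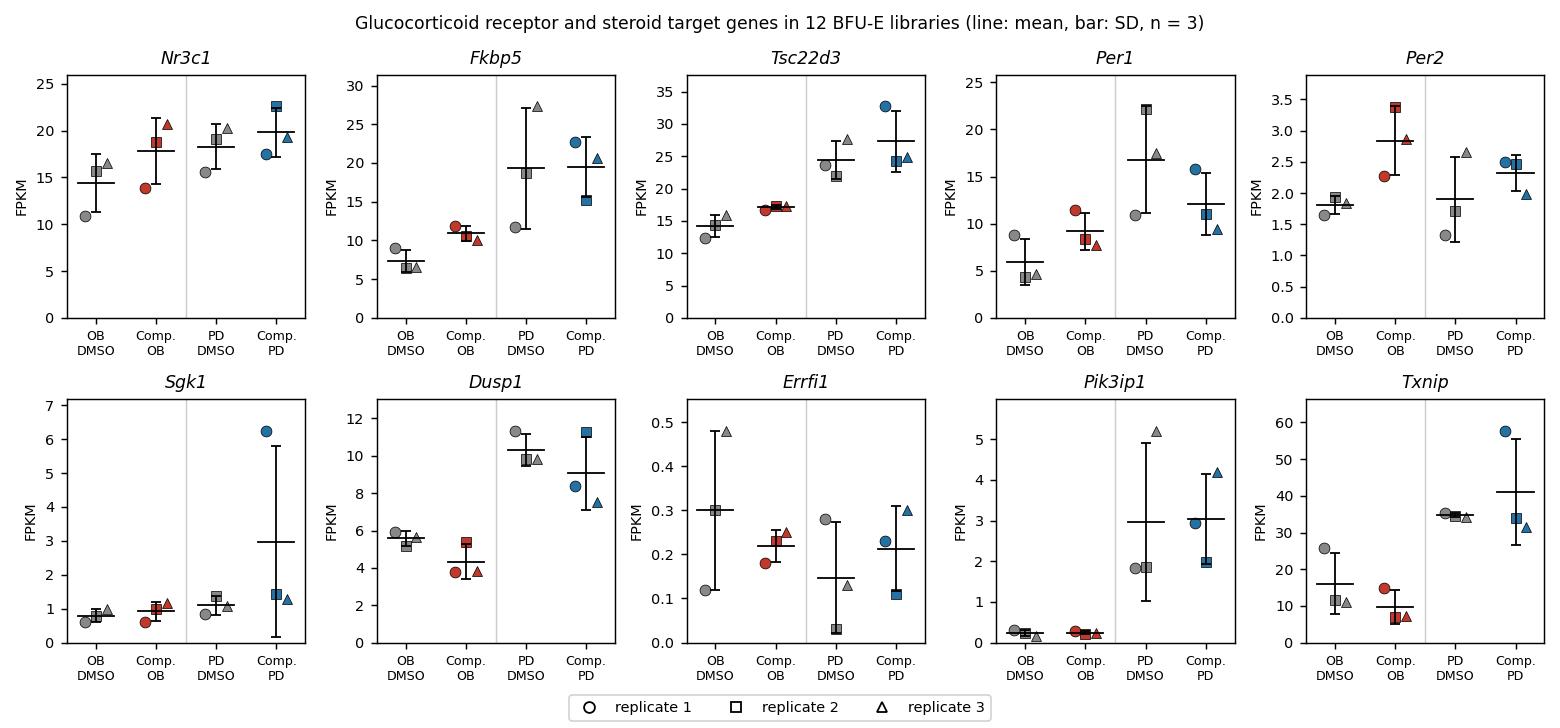
Level of each of the 10 genes in FPKM (vertical axis, from 0, with its own scale per gene) in the 4 groups, OB DMSO, Compound OB, PD DMSO and Compound PD. Points are single libraries with their replicate number as the symbol, horizontal lines are means and bars are SD of 3 libraries. The Compound OB points of Fkbp5, Tsc22d3 and Per2 lie above every OB DMSO point, and 1 Compound PD library stands alone for Sgk1 at 6.24 FPKM.

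For the receptor gene, the libraries with Compound OB were somewhat higher in each numbered pair, but the groups overlapped and no difference passed the test. Nr3c1 measured 10.86, 15.7 and 16.52 FPKM in OB DMSO replicates 1, 2 and 3, and 13.86, 18.76 and 20.67 FPKM in the Compound OB replicates. Means were 14.4 ± 3.06 and 17.8 ± 3.51 FPKM (SD, n = 3 each). The lowest library of each group was replicate 1. On the log2(FPKM + 1) scale, where changes of weakly expressed genes look smaller than they are, the fold change was 0.29 (SE 0.21, 95% interval −0.20 to 0.78, limma adjusted p = 1). The 3 pairs differed by 0.33, 0.24 and 0.31, and with the replicate number as a block the SE was 0.07 and the limma adjusted p 0.225. Without OB DMSO replicate 1 the unblocked value was 0.12, and without Compound OB replicate 1 it was 0.45. With block and median-ratio scaling the limma adjusted p was 0.149, and it was 0.0741, 0.0196 and 0.679 without the libraries numbered 1, 2 and 3. The fit without those numbered 2 called 423 of 10095 genes. A fit without a pair keeps 2 libraries a group, so its p-values lean on the variance that limma borrows from all genes.

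With Compound PD the receptor gene gave overlapping groups and no difference that passed the test. Nr3c1 measured 15.58, 19.15 and 20.26 FPKM in PD DMSO and 17.49, 22.6 and 19.36 FPKM in Compound PD. Compound PD replicate 2 was the highest of the 6 libraries, and again replicate 1 was the lowest of each group. The log2 fold change was 0.11 (SE 0.18, 95% interval −0.31 to 0.52, limma adjusted p = 0.934).

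Fkbp5, which encodes an Hsp90 partner that lowers the receptor's affinity for hormone and so closes a feedback loop, was higher with Compound OB in every library than in any control. It measured 8.97, 6.49 and 6.57 FPKM in OB DMSO and 11.92, 10.61 and 10.08 FPKM in Compound OB. The groups did not overlap. The means of 7.34 ± 1.41 and 10.9 ± 0.947 FPKM (SD, n = 3 each) give a ratio of 1.48. The log2 fold change was 0.52 (SE 0.15, 95% interval 0.17 to 0.87, limma adjusted p = 1 over 10072 genes). With both the replicate block and median-ratio scaling of the libraries it was 0.49 (SE 0.07) and passed the threshold (limma adjusted p = 0.0337), but it did not pass with the block alone (0.132). It no longer passed that joint setting without the libraries numbered 3 (0.189).

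Fkbp5 with Compound PD gave no direction. The libraries measured 11.72, 18.72 and 27.32 FPKM in PD DMSO and 22.69, 15.19 and 20.63 FPKM in Compound PD, all 3 treated values lying within the control range. Its fold change on the log2 scale was 0.08 (SE 0.29, 95% interval −0.59 to 0.74, limma adjusted p = 0.975). It was −0.22 without PD DMSO replicate 1 and −0.04 without Compound PD replicate 1, and −0.013 with median-ratio scaling of the libraries.

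Tsc22d3 encodes GILZ, a leucine zipper protein that curbs NF-κB and AP-1 and is a standard readout of receptor activity. In the OB set it measured 12.33, 14.4 and 15.85 FPKM with DMSO and 16.7, 17.29 and 17.25 FPKM with Compound OB. The groups did not overlap, and the treated libraries were close to each other (17.1 ± 0.33 FPKM, against 14.2 ± 1.77 FPKM, SD, n = 3 each). This gave a log2 fold change of 0.26 (SE 0.12, 95% interval −0.02 to 0.53, limma adjusted p = 1). PD set values were 23.7, 21.92 and 27.61 FPKM with DMSO and 32.73, 24.28 and 24.84 FPKM with Compound PD. There the groups overlapped, with Compound PD replicate 1 the highest library, and the log2 fold change was 0.15 (SE 0.18, 95% interval −0.27 to 0.56, limma adjusted p = 0.901).

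Per1 and Per2 encode period proteins, the repressors of the circadian clock, and Per1 responds quickly to both glucocorticoids and cAMP. Per1 measured 8.77, 4.37 and 4.65 FPKM in OB DMSO and 11.44, 8.32 and 7.77 FPKM in Compound OB. Replicate 1 was the highest library of each group, and its control value lay above the other two treated values, so the groups overlapped although each treated library exceeded its own numbered control. The log2 fold change was 0.59 (SE 0.26, 95% interval −0.03 to 1.22, limma adjusted p = 1). It was 0.56 (SE 0.09) with the replicate block and median-ratio scaling (limma adjusted p = 0.0389), was not called with the block alone (0.156), and was not called in the joint setting without the libraries numbered 3 (0.126). Without OB DMSO replicate 1 the unblocked fold change was 0.87 (limma adjusted p = 0.117).

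With Compound PD the Per1 mean was lower than its control mean. The libraries measured 10.87, 22.13 and 17.52 FPKM in PD DMSO and 15.77, 11.06 and 9.45 FPKM in Compound PD. The lowest control, replicate 1, lay below 2 of the 3 treated libraries, so the groups overlapped. Compound PD gave a log2 fold change of −0.42 (SE 0.28, 95% interval −1.06 to 0.22, limma adjusted p = 0.708), and −0.69 without PD DMSO replicate 1 (0.166).

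Per2 was a low gene in both sets. It measured 1.65, 1.94 and 1.84 FPKM in OB DMSO and 2.28, 3.38 and 2.86 FPKM in Compound OB, and the groups did not overlap. Means were 1.81 ± 0.147 and 2.84 ± 0.55 FPKM (SD, n = 3 each), a ratio of 1.57, and the log2 fold change was 0.44 (SE 0.15, 95% interval 0.09 to 0.79, limma adjusted p = 1, or 0.224 with the replicate block). PD set libraries measured 1.33, 1.71 and 2.66 FPKM with DMSO and 2.5, 2.47 and 1.99 FPKM with Compound PD. Its 3 treated values all lay inside the control range, with a log2 fold change of 0.22 (SE 0.27, 95% interval −0.40 to 0.83, limma adjusted p = 0.903).

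Sgk1 encodes the serum- and glucocorticoid-regulated kinase and is the gene above with the full response element before one of its starts. In the OB set its mean was under the 1 FPKM needed for a test, with 0.6, 0.78 and 1 FPKM in OB DMSO and 0.62, 0.98 and 1.16 FPKM in Compound OB. In the PD set it measured 0.83, 1.38 and 1.09 FPKM with DMSO and 6.24, 1.42 and 1.29 FPKM with Compound PD. Compound PD replicate 1 was far above every other library, and the other 2 treated libraries were near the controls. Its log2 fold change was 0.71 (SE 0.44, 95% interval −0.29 to 1.72, limma adjusted p = 0.676) and 0.17 without that library. The same library had the highest megakaryocyte sum (7606 FPKM) and the highest mast cell and basophil sum (3529 FPKM) of the 12, and their part in the Sgk1 value was not tested.

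Dusp1 encodes a phosphatase that switches off MAP kinases. It measured 5.94, 5.15 and 5.66 FPKM in OB DMSO and 3.78, 5.4 and 3.83 FPKM in Compound OB. Replicates 1 and 3 were lower with the compound and replicate 2 was not, so the groups overlapped. Across the group the log2 fold change was −0.32 (SE 0.15, 95% interval −0.68 to 0.05, limma adjusted p = 1). With the other DMSO libraries, those of the PD set, it measured 11.33, 9.81 and 9.84 FPKM with DMSO and 8.39, 11.27 and 7.54 FPKM with Compound PD. The groups overlapped there too, and the log2 fold change was −0.19 (SE 0.21, 95% interval −0.65 to 0.28, limma adjusted p = 0.879). Dusp1 thus differed in sign from Fkbp5, Tsc22d3 and Per2 with Compound OB, without passing the test. With block and median-ratio scaling its limma adjusted p was 0.17. In that setting it was 0.145, 0.00299 and 0.701 without the libraries numbered 1, 2 and 3, in fits chosen after seeing the data. The pair numbered 2 is the one that was not lower with the compound.

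Errfi1 and Pik3ip1 encode inhibitors of receptor tyrosine kinase and PI 3-kinase signalling. Errfi1 lay between 0.03 and 0.48 FPKM in all 12 libraries and was tested in neither set. Pik3ip1 lay between 0.17 and 0.31 FPKM in the OB set and was not tested there. In the PD set it measured 1.83, 1.85 and 5.2 FPKM with DMSO and 2.95, 1.99 and 4.19 FPKM with Compound PD. Replicate 3 was the highest library of both PD groups, and the log2 fold change was 0.10 (SE 0.37, 95% interval −0.73 to 0.93, limma adjusted p = 0.975).

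Txnip encodes the thioredoxin-interacting protein, an arrestin relative that limits glucose uptake and whose promoter carries the paired E-box shown above. It measured 25.65, 11.55 and 10.99 FPKM in OB DMSO and 14.91, 7.03 and 7.17 FPKM in Compound OB. Replicate 1 was the highest library of each group, and the groups overlapped because its treated value lay above the controls numbered 2 and 3. Within each numbered pair the treated library was lower, with log2 differences of −0.74, −0.64 and −0.55. The log2 fold change was −0.65 (SE 0.39, 95% interval −1.58 to 0.29, limma adjusted p = 1), and −0.27 without OB DMSO replicate 1.

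With the replicate block the same Txnip estimate had an SE of 0.08 and a limma adjusted p of 0.0718. With block and median-ratio scaling it was −0.68 (SE 0.07) and passed (limma adjusted p = 0.014). In that joint setting it also passed without the libraries numbered 1, 2 or 3 (limma adjusted p = 0.000741, 2.01e-08 and 0.00728). Those smaller fits called 1971 of 9968, 423 of 10095 and 68 of 10085 genes, and were chosen after seeing the data. Each keeps 2 libraries a group, so its small p-values lean on the variance that limma borrows from all genes. They are not separate support for a change. Txnip in the PD set measured 35.44, 34.63 and 34.25 FPKM with DMSO and 57.68, 34.09 and 31.58 FPKM with Compound PD. Compound PD replicate 1 was above all controls and the other 2 treated libraries were below all of them. The log2 fold change was 0.18 (SE 0.23, 95% interval −0.33 to 0.70, limma adjusted p = 0.901) and −0.08 without that library.

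**Figure D2:**
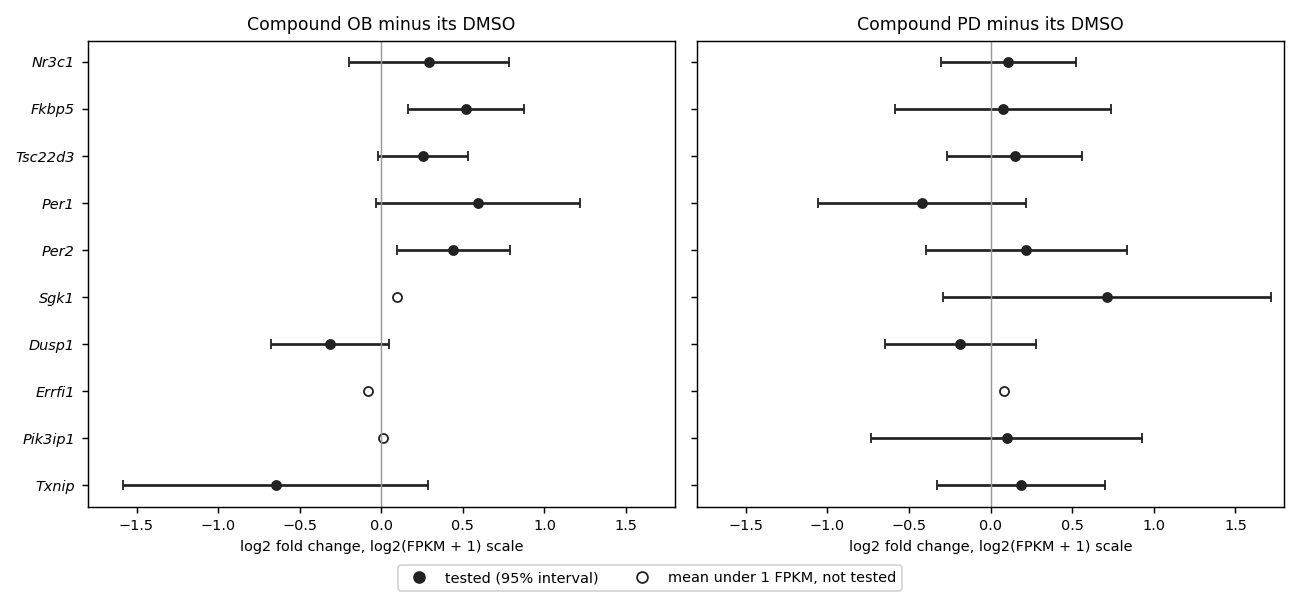
Log2 fold change on the log2(FPKM + 1) scale (horizontal axis) of each gene for Compound OB (left) and Compound PD (right) against its own DMSO libraries, with 95% intervals from limma without a replicate block. Open points are genes with a mean under 1 FPKM, which were not tested. With Compound OB the intervals of Fkbp5 and Per2 lie above 0 before adjustment, and with Compound PD every interval includes 0.

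With Compound OB, 7 of the 10 genes passed the filter on low values (a mean of 1 FPKM) and none was called by limma, like all 10072 genes tested (0% called). At an unadjusted p under 0.05 limma held 371 of the 10072 genes (3.68%), among them Fkbp5 (0.0106) and Per2 (0.0201). This is fewer than the 504 expected by chance, so the lack of calls without a block does not show a lack of change. With the block limma held 1501 genes at that threshold. Among the 7 genes the blocked unadjusted p ran from 0.00018 (Txnip) to 0.0627 (Dusp1). Fkbp5, Tsc22d3 and Per2 had groups that did not overlap, all higher, against 5.31% of all genes, and none was lower without overlap, against 3.42%. Nr3c1, Fkbp5, Tsc22d3, Per1 and Per2 were higher in every numbered pair, against 23.1% of genes, and Txnip was lower in every pair, against 16.7%. The block and scaling together called 1.03% of genes (0.626% higher, 0.407% lower), Fkbp5, Per1 and Txnip among them, while the block alone called 0.0695% and none of the 7. The pairing behind these blocked values is weak between replicates 2 and 3 and rests largely on the replicate 1 libraries, which stood apart in both groups. The median log2 fold change of the 7 genes was 0.29, against 0.03 over all genes.

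**Figure D3:**
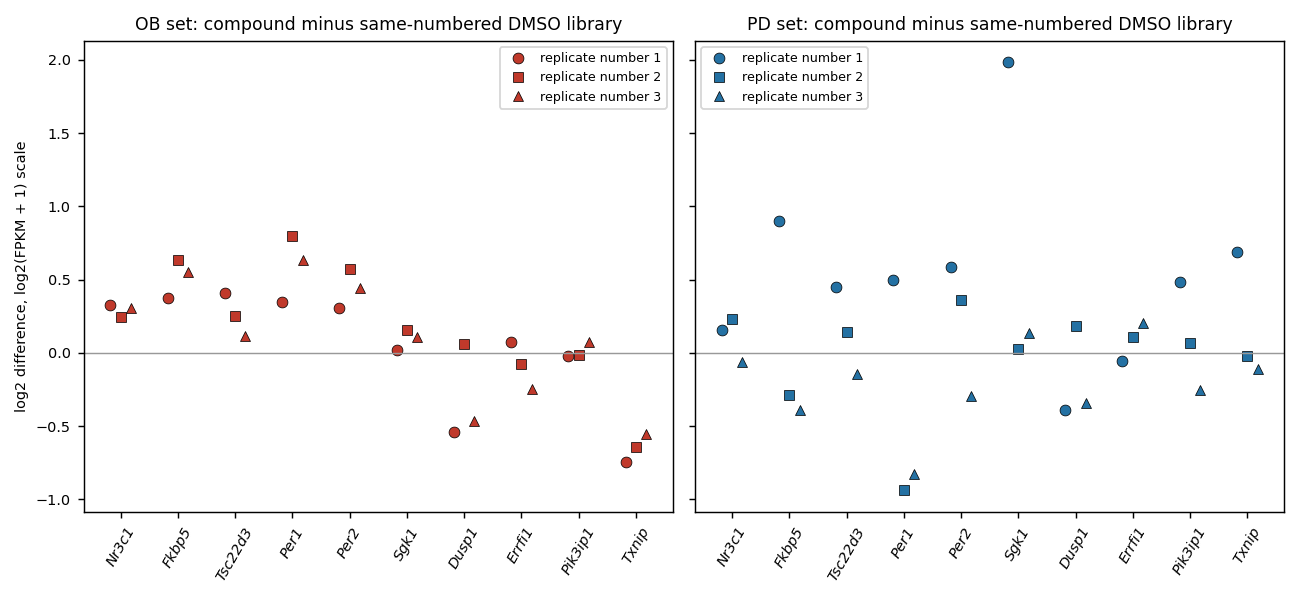
Difference between each compound library and the DMSO library with the same replicate number (vertical axis, log2(FPKM + 1) scale) for the 10 genes, in the OB set (left) and the PD set (right); symbols are replicate numbers. In the OB set Nr3c1, Fkbp5, Tsc22d3, Per1 and Per2 have 3 points above 0 and Txnip 3 below. In the PD set, where the numbers were not found to pair libraries, points of most genes lie on both sides of 0.

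With Compound PD, 9 of the 10 genes were tested and none was called by limma, against 0.0252% of 11887 genes. No gene of the 9 had an unadjusted p under 0.05, against 10.7% of all genes. No gene of the 9 had groups without overlap, against 13.1% of genes higher and 3.72% lower. The median log2 fold change of the 9 was 0.11, against 0.06 over all genes. The intervals, from 3 libraries a group, reach from −1.06 (Per1) to 1.72 (Sgk1). For Nr3c1, Fkbp5, Tsc22d3, Per2 and Dusp1 they include the value estimated with Compound OB, so changes of that size are not excluded. For Per1 and Txnip they do not include it, but the Compound OB values are themselves uncertain.

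The compounds were compared through the difference of their effects (Compound PD minus Compound OB, each against its own DMSO) in a joint limma fit. Compound, dose and culture set go together and cannot be told apart. Over the 10310 genes tested no difference was called (0%), and 760 (7.37%) had an unadjusted p under 0.05. Per1 had the difference with the smallest p of the 9 genes tested, −1.01 on the log2 scale (SE 0.41, 95% interval −1.90 to −0.13, limma adjusted p = 0.573). For Txnip it was 0.83 (SE 0.47, 95% interval −0.18 to 1.84, limma adjusted p = 0.792). The Fkbp5 difference was −0.44 (limma adjusted p = 0.95) and the Sgk1 difference was 0.62 (0.95). Single libraries moved these values: Sgk1 was 0.079 without Compound PD replicate 1, and Fkbp5 was −0.165 without PD DMSO replicate 3, −0.283 without Compound PD replicate 2 and −0.742 without PD DMSO replicate 1. Txnip was 0.458 without OB DMSO replicate 1. No gene of the 9 was shown to respond differently to the compounds, and the width of the intervals does not show that they respond alike.

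Other genes of the pathway came from lists of receptor chaperones, steroid supply, coactivators, corepressors, further steroid targets, steroid-repressed genes, clock genes, CREB and early genes, FOXO and PI 3-kinase genes, and arrestins with thioredoxin genes. No gene of these 10 lists was called by limma without a block, with either compound.

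**Figure D4:**
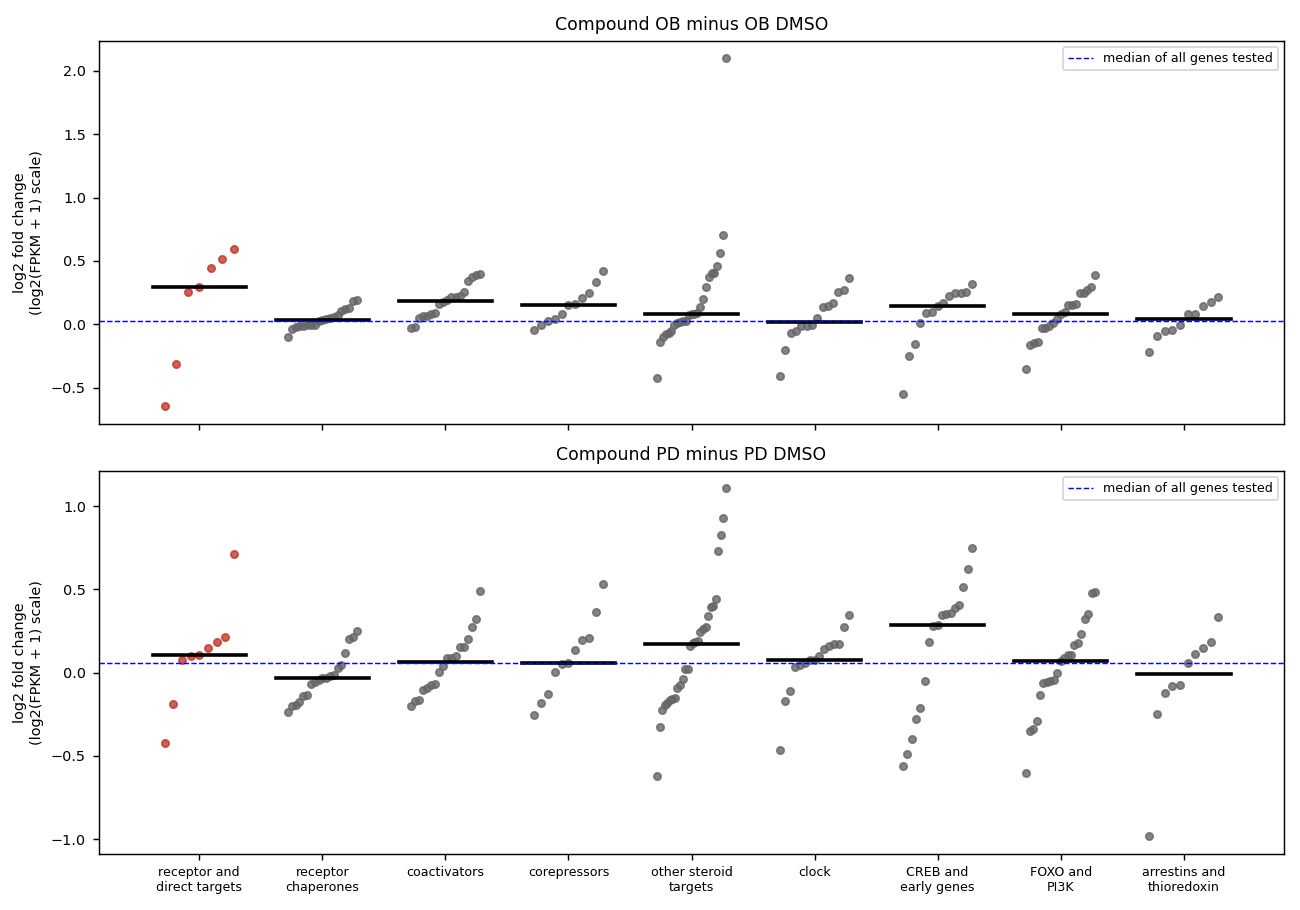
Log2 fold change on the log2(FPKM + 1) scale (vertical axis) of every tested gene of 9 groups for Compound OB (top) and Compound PD (bottom): the receptor with its direct targets (red) and 8 pathway lists (grey). Black bars are list medians and the dashed line is the median of all genes tested; the short lists for steroid supply and steroid-repressed genes are not drawn. With Compound OB the point at 2.10 is Mt2, and with Compound PD the highest point is Lcn2 at 1.11.

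With Compound OB, 11 of 19 receptor chaperones (Hsp90, its partners and related genes) had a positive fold change, with a median of 0.03, and Hsp90ab1 measured 1483 ± 426 and 1665 ± 226 FPKM (SD, n = 3 each). Of 18 coactivators, 16 were positive with a median of 0.18, and of 11 corepressors 9 were positive with a median of 0.15. Over all genes 5917 were positive and 4155 negative. The largest values among the coactivators were those of Kat2a (0.39), an acetyltransferase, and Carm1 (0.39), an arginine methyltransferase. Neither passed the test with the block or with block and scaling.

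Of 35 further steroid targets, 25 were tested with Compound OB, 18 of them positive, with a median of 0.08. Of the 25, 6 had an unadjusted limma p under 0.05, against 3.68% of all genes. Mt2 and Mt1 encode metallothioneins, small metal-binding proteins induced by both glucocorticoids and metals such as zinc. Mt2 measured 82.94, 126.55 and 156.32 FPKM in OB DMSO and 363.44, 559.18 and 650.17 FPKM in Compound OB, without overlap. Its log2 fold change was 2.10 (SE 0.29, limma adjusted p = 0.33), and it passed with the block (0.00012). Mt1 measured 755.1, 617.33 and 860.56 FPKM in OB DMSO and 1133.45, 1183.29 and 1297.85 FPKM in Compound OB, also without overlap. Its log2 fold change was 0.71 (SE 0.13, limma adjusted p = 0.495), and it passed with block and scaling (0.00571) but not with the block alone (0.0712). Over all genes 5.31% were higher without overlap with Compound OB. With Compound PD the fold changes were 0.18 for Mt2 and −0.04 for Mt1.

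Of the 20 clock genes, 14 were tested with Compound OB, 7 positive and 7 negative. Of those averaging at least 5 FPKM, Cry2, the cryptochrome that acts with the period proteins, had the largest fold change. Cry2 measured 5.25 ± 0.36 FPKM in OB DMSO and 7.07 ± 0.715 FPKM in Compound OB (SD, n = 3 each, log2 fold change 0.37, limma adjusted p = 1). Among CREB and early genes 10 of 13 tested were positive, with a median of 0.14, and Ier3, an early response gene, was the lowest at −0.55. Among FOXO and PI 3-kinase genes 12 of 19 were positive. Trib3, a pseudokinase that binds AKT, measured 94.5 ± 4.21 and 124 ± 2.86 FPKM (SD, n = 3 each, log2 fold change 0.39). Its limma adjusted p was 0.546, and 0.0467 with block and scaling, but 0.0934 with the block alone. Among arrestin and thioredoxin genes 5 of 10 were positive, with a median of 0.04, and Slc2a3, a glucose transporter, was lowest at −0.22. Of steroid supply 2 genes were tested, and 2 of 15 steroid-repressed genes.

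Of 7 genes of steroid supply, 3 were tested with Compound PD, and none was called. Hsd11b1 and H6pd had positive values and Abcb1b, a drug and steroid exporter, a value of −0.16. Hsd11b1 encodes the enzyme that turns inactive 11-keto steroids into active ones, and H6pd makes the NADPH it uses. Hsd11b1 measured 11.32, 18.88 and 25.14 FPKM in PD DMSO and 35.31, 26.63 and 26.68 FPKM in Compound PD, without overlap. Its log2 fold change was 0.71 (SE 0.27, limma adjusted p = 0.391). H6pd measured 8.68, 12.6 and 15.11 FPKM and 20.71, 17.83 and 19.98 FPKM, also without overlap, with a log2 fold change of 0.67 (SE 0.22, limma adjusted p = 0.289). Over all genes 13.1% were higher without overlap with Compound PD. In the OB set, where granulocyte markers were low, Hsd11b1 lay between 0.11 and 0.98 FPKM, highest in replicate 1 of each group, and H6pd between 6.12 and 9.05 FPKM. All 11 neutrophil markers and all 9 megakaryocyte markers had positive fold changes with Compound PD, with medians of 0.84 and 0.87, and their part in these values was not tested.

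Of 28 further steroid targets tested with Compound PD, 17 were positive, with a median of 0.17, against 7025 positive of 11887 genes. Of the 28, 5 had an unadjusted limma p under 0.05, against 10.7% of all genes. Lcn2 and Anxa1 had the largest values. Lcn2, a granule protein of neutrophils that binds siderophores, measured 419 ± 113 and 890 ± 166 FPKM (SD, n = 3 each, log2 fold change 1.11, limma adjusted p = 0.144). Anxa1, an anti-inflammatory annexin abundant in granulocytes, measured 194 ± 58.5 and 357 ± 12.1 FPKM (SD, n = 3 each, log2 fold change 0.93, limma adjusted p = 0.179). In the OB set Lcn2 lay between 0.64 and 2.21 FPKM and Anxa1 between 1.62 and 5.47 FPKM. Neutrophil markers were also low in that set, and their part in the Lcn2 and Anxa1 values was not tested.

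The remaining lists with Compound PD had medians of −0.03 for receptor chaperones (6 of 19 positive), 0.06 for coactivators (11 of 18), 0.06 for corepressors (8 of 11) and 0.08 for clock genes (12 of 15). They were 0.28 for CREB and early genes (11 of 17), 0.07 for FOXO and PI 3-kinase genes (11 of 21), 0.21 for steroid-repressed genes (8 of 13) and −0.01 for arrestin and thioredoxin genes (5 of 10). Slc2a1, the main glucose transporter of erythroid cells, had the lowest value of the last list at −0.98 (302 ± 182 and 138 ± 22.9 FPKM, SD, n = 3 each, limma adjusted p = 0.333). Its control mean was raised by PD DMSO replicate 1, at 511.83 FPKM, against 190.84 and 202.38 FPKM in the other controls. The Compound PD libraries, at 112.66, 157.44 and 143.11 FPKM, lay below every control. Over all genes 3.72% were lower without overlap.

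The gene of the second steroid receptor that binds corticosterone, Nr3c2 (the mineralocorticoid receptor), lay at or below 0.08 FPKM in all 12 libraries. Hsd11b2, which inactivates the hormone, lay at or below 0.13 FPKM. Neither was tested.

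The genes whose levels most resembled Nr3c1 over the 12 libraries, each set centred on its own mean, were Vps13b (Pearson r = 0.919), Arl14ep (0.902), Rbmx (0.90), Taco1 (0.898) and Nudt19 (0.897), among 7182 genes averaging 5 FPKM or more. Vps13b encodes a lipid transfer protein of the Golgi and Rbmx an RNA-binding protein. Within the OB set r was 0.949, 0.985, 0.969, 0.986 and 0.936 in that order, and within the PD set 0.817, 0.567, 0.738, 0.584 and 0.767. The libraries share scaling and, in the OB set, the distance of the replicate 1 libraries from the others, so r is a description only. In all 4 groups the library numbered 1 had the lowest Nr3c1 and the highest Txnip.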

How the data were processed

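RNA was sequenced in 12 libraries, 3 in each of 4 groups. A CREB immunoprecipitation and its input, 2 further samples, are not analysed here. The deposited values are FPKM per gene with 2 decimals. The aligner STAR and the build mm10 are named in the submitters' processing notes. The aligner's version, the FPKM program, the annotation and the use of strand were not given in the sources used here, so overlapping, antisense and near-identical genes are uncertain. FPKM carries no counts, so depth is unknown and precision is the SD over 3 libraries. Tables of the OB set list 24054 entries and those of the PD set 54752. Left out were 429 OB entries split at a hyphen, 27 names turned into dates in each set, and 185 PD entries with repeated symbols.

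Compound and DMSO libraries of a set were compared by limma 3.58.1 (R 4.3.3, statmod 1.5.0) with trended, robust moderation. Values were log2(FPKM + 1), and genes averaging under 1 FPKM were left out. Tests were two-sided with Benjamini-Hochberg adjustment over all genes and a threshold of 0.05. The difference of the compounds used all 12 libraries and 4 group means, over the 22269 genes common to the sets before the filter. The fit without a block or scaling was tried on simulated data with independent noise in each library. The blocked and scaled fits were not tried in this way. Other software was Python 3.11.15, pandas 2.3.3, numpy 2.4.6, scipy 1.17.1 and matplotlib 3.10.9.

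Replicate numbers are shared between groups. Deviations of same-numbered libraries from their group means correlated across 10072 genes at 0.832, 0.434 and 0.652 for replicates 1, 2 and 3 of the OB set, taken as paired. OB DMSO replicate 2 correlated with Compound OB replicate 3 nearly as well (0.413), and OB DMSO replicate 3 with Compound OB replicate 2 at 0.327, so the pairing rests largely on replicate 1 and blocked calls carry that doubt. In the PD set the values were −0.005, −0.028 and −0.02 across 11887 genes, taken as not paired. Alternatives were other pseudocounts and filters, scaling, plain moderation, the replicate block, and leaving out each library. The blocked fits without a pair were chosen after seeing the data.

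The 10 genes and the lists (10 of pathway genes, 8 of markers) were chosen with earlier results of these data known. All 10 genes are named in every library. From each list the genes that passed are named, or else the 2 with a mean of at least 5 FPKM and the largest absolute fold change, of which some are printed; Nr3c2 and Hsd11b2 are named outside this rule, chosen after their values were seen, as are the genes most like Nr3c1 by a correlation rule (the first 5).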

Additional observations from a re-analysis of the deposited data

How the results depend on the processing

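With Compound OB, 61 of 64 values under other settings and all 42 without 1 library kept sign and call. Fkbp5, Per1 and Txnip passed with the replicate block and median-ratio scaling together. The 61 include Sgk1, Errfi1 and Pik3ip1 without a filter, which have no call and were compared only with themselves. Other filters and plain moderation leave the estimates as they are, so signs could not change there. The number of called genes was 0, then 7 with the replicate block and 104 with block and scaling, and 0 to 14 without 1 library (14 without OB DMSO replicate 1). In blocked fits without a pair, added after seeing the data, it was 1132 of 9966, 147 of 10097 and 3 of 10090 genes without replicates 1, 2 and 3. With scaling it was 1971 of 9968, 423 of 10095 and 68 of 10085 genes. Each fit without a pair keeps 2 libraries a group, so its calls lean on the variance that limma borrows from all genes. Over the blocked fits without a pair, with and without scaling together, 25 of 42 values kept their call and 17 passed. The 42 are the same 7 genes in fits that share libraries, so they are not separate results.

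With Compound PD, 3 genes were called, against 0 without a filter, 0 with plain moderation, 41 with the replicate block and 0 with block and scaling. Without 1 library the count was 0 to 167 (167 without PD DMSO replicate 1, 1 without PD DMSO replicate 2, 0 without any Compound PD library). The Fkbp5 fold change was −0.013 with median-ratio scaling, with or without the replicate block, and −0.023 with quantile scaling, and −0.223 to 0.354 without 1 library. Pik3ip1 was −0.047 with quantile scaling and −0.10 to 0.473 without 1 library, and Txnip −0.081 to 0.343. Sgk1 was 0.17 to 1.00. Besides Lcn2 (limma adjusted p = 0.0126 with the replicate block), the block changed no call of a gene named for Compound PD.

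For the difference of the compounds, 0 genes were called, against 3 with a pseudocount of 0.1, 3 without a filter and 6 with plain moderation, and 0 to 15 without 1 library (15, 4 and 1 without PD DMSO replicate 1, 2 and 3). With quantile scaling Dusp1 was −0.023 and Pik3ip1 −0.095, and without 1 library they were −0.022 to 0.268 and −0.113 to 0.461. The replicate block called 0 there. The cause of these changes was not tested. Without counts no sampling error can be given, and genes near 1 FPKM have the least certain values.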
